A study of Mus musculus with 24 samples.

Results

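The cardiac response to a single treadmill bout when the rest phase begins (ZT0, lights on) was measured by comparing 6 hearts of exercised mice (ZT0-EX) with 6 hearts of sedentary mice (ZT0-SED). These are 12 of the 24 RNA sequencing libraries of a study that repeated the comparison at ZT12, the start of the active phase, and asks how the time of day shapes the response of the heart to exercise. The members were chosen by their labels alone, and the comparison runs across all genes that passed a filter on low counts. Every mouse was a male C57Bl/6 wild-type animal aged 12 weeks, housed with light and dark phases of 12 h each. The mice had been habituated to the treadmill. ZT0-EX mice then ran once for 60 min at 10 m/min on a belt with 0% grade at ZT0, and ZT0-SED mice did not run. ZT stands for zeitgeber time, the hours since the lights came on, and handling in the dark phase was done under red light. The tissue is labelled as heart, with no chamber named, and no source used here gives the interval from the bout to collection. Flow cell 1 carried replicates 1, 2 and 3 of each group, and flow cell 2 the other replicates, 4, 5 and 6. The labels call the replicates biological, and the p-values below measure the spread between these libraries.

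A bout of running raises heart work, body temperature, sympathetic drive and circulating glucocorticoid hormones. Heat shock factor 1 switches on chaperone genes when unfolded proteins accumulate. The glucocorticoid receptor binds DNA elements near genes such as Per1, Fkbp5 and Tsc22d3. Calcium, cyclic AMP and MAP kinase signals switch on immediate early genes, which need no new protein synthesis. At ZT0 a mouse normally goes to rest, its glucocorticoid level is near the low point of the daily cycle, and the period genes of the clock are low in the heart.

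Library totals at ZT0 ran from 13822708 to 23067191 counts, and 3 counts correspond to 0.217 CPM (counts scaled to a common library total) in the shallowest library. Totals averaged 17369686 ± 3130794 (SD, n = 6) in ZT0-SED and 18542124 ± 1290219 in ZT0-EX (difference 1172438, two-sided exact permutation test within flow cells, p = 0.39, smallest possible p 0.005). Within flow cell 1 the difference was -55762, and within flow cell 2 it was 2400638. The share of counts from mitochondrially encoded transcripts was 23.8% ± 9.47 (SD, n = 6) in ZT0-SED and 24.5% ± 8.44 in ZT0-EX (exact permutation p = 0.82), with differences of 0.723 and 0.680 percentage points on flow cells 1 and 2. Heart muscle markers were abundant in every library: 10 of them summed to 52009 to 102349 CPM in ZT0-SED and 50591 to 92846 CPM in ZT0-EX. Some libraries stood apart in properties that no label explains. Fast skeletal muscle transcripts (Myh4 and Actn3 among them) were abundant in ZT0-EX 4, 5 and 6 and in ZT0-SED 6, where 12 markers averaged 5.95 to 7.80 log2 CPM, compared with -0.06 to 1.11 for the remaining 8 libraries. Without Ckm, which the heart also expresses, the other 11 markers summed to 11.0 to 849 CPM in ZT0-SED and 13.8 to 3397 CPM in ZT0-EX. All 3 exercised libraries of flow cell 2 are thus among these 4, and flow cell 1 holds none of them. Levels also moved with transcript length. Across genes, the deviation of a library from its flow cell's mean correlated with the length of the longest annotated transcript at Spearman's rho of -0.65 in ZT0-SED 3, -0.60 in ZT0-SED 4 and -0.38 in ZT0-SED 5. It was 0.26 in ZT0-SED 1, 0.12 in ZT0-SED 2 and 0.56 in ZT0-SED 6, and 0.12 to 0.52 in the ZT0-EX libraries. The exercise effect itself correlated with length at 0.55 over 14605 genes (0.54 and 0.42 within flow cells 1 and 2). Its correlation with GC content was 0.03 (-0.06 and 0.11 within flow cells 1 and 2). Deviations of single libraries correlated with GC content at -0.53 (ZT0-SED 2) to 0.37 (ZT0-SED 3). Genes share the libraries and are not independent replicates in these values.

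**Figure D1:**
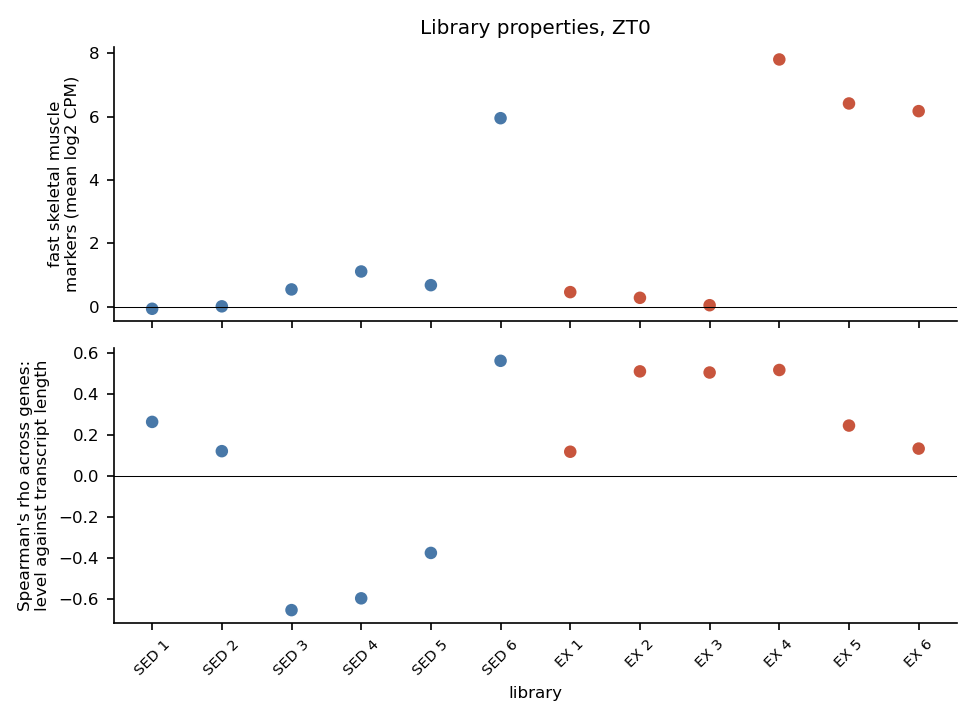
Each point is 1 of the 12 ZT0 libraries, blue for sedentary and red for exercised. The upper panel gives the mean log2 CPM of 12 fast skeletal muscle markers and the lower panel Spearman's rho across genes between a library's deviation from its flow cell's mean level and transcript length: 4 libraries lie at 5.95 or above in the upper panel, and ZT0-SED 3, 4 and 5 lie below 0 in the lower panel.

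Exercise at ZT0 raised chaperone, immediate early and glucocorticoid-responsive genes and lowered several receptor and chemokine genes of white blood cells. Of 14611 genes tested, 413 (2.83%) passed the threshold, an adjusted p below 0.05 (edgeR quasi-likelihood, adjusted by Benjamini-Hochberg over every gene tested), with flow cell as a term. Of these, 271 (1.85% of the genes tested) were higher and 142 (0.972%) were lower after exercise. The median log2 difference was 0.80 among the rises, -0.85 among the falls and -0.01 over all genes, whose interquartile range was -0.25 to 0.21. More than 2-fold changes numbered 84 rises and 45 falls, and more than 4-fold changes 14 rises and 3 falls. In 246 genes (1.68%) no exercised library overlapped a sedentary one, 157 higher (1.07%) and 89 lower (0.609%). Genes that fell were less abundant, with a median average level of 2.27 log2 CPM against 4.30 for the rises and 3.73 for all genes. The rises also had longer transcripts (median 3892 bases) than the falls (2666.5) and all genes (3218), beside the length pattern of the libraries given above, and the part of that pattern in the calls of single genes was not tested. With an offset for transcript length in each library, added after seeing the data, 684 genes passed (420 higher, 264 lower), 370 of them among the 413, and all 413 kept their sign. The effect with these offsets correlated with length at 0.01 and with GC content at 0.20. The count was 2596 without ZT0-SED 6, which held skeletal muscle transcripts and correlated with transcript length at 0.56. The other sedentary libraries of flow cell 2 stood at -0.60 and -0.38. Without ZT0-SED 6, exercise, the muscle transcripts and the direction of the length pattern cannot be told apart on flow cell 2. The count was 227 without ZT0-SED 5 and 237, 238, 247, 206 and 270 without ZT0-EX 2, 3, 4, 5 and 6. Without the 4 libraries with skeletal muscle transcripts, 53 of 14871 genes passed (0.356%), 41 higher (0.276%) and 12 lower (0.0807%). Of these 51 were among the 413, and all 410 of the 413 measured there kept their sign. The 413 were chosen on libraries that these fits share, which favours the same sign. That fit (the 8-library fit below) holds 5 sedentary and 3 exercised libraries, all the exercised ones on flow cell 1. With flow cell as a term, its exercise effect rests on flow cell 1 alone, 3 libraries of each group. ZT0-SED 4 and 5 add only to the estimate of spread, so the fit is not independent of the effect within flow cell 1.

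**Figure D2:**
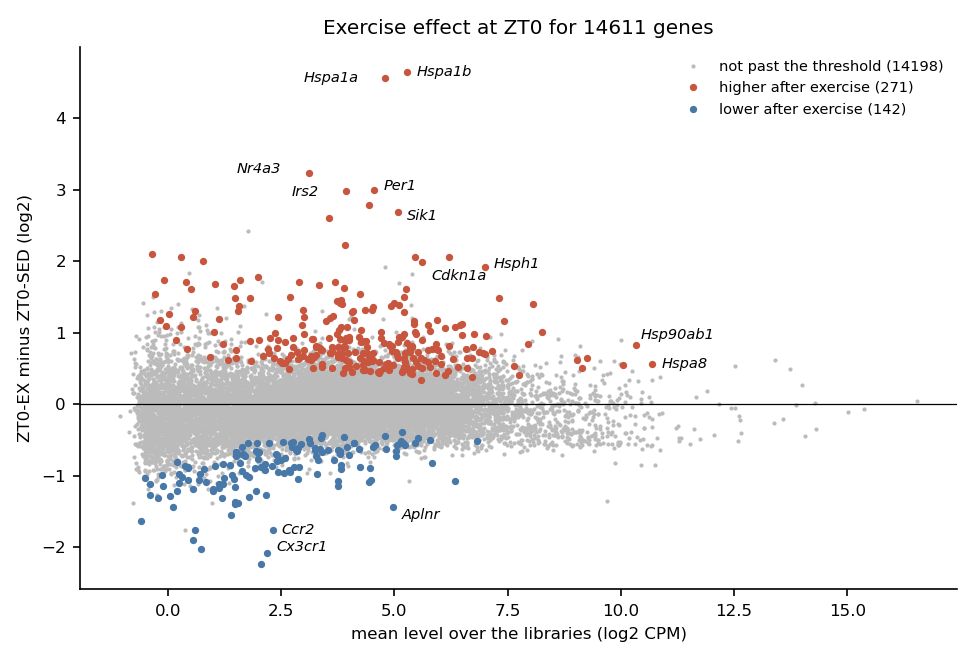
Each point is 1 of 14611 genes, with its mean level over the 12 libraries (log2 CPM) on the horizontal axis and the log2 difference between exercised and sedentary mice on the vertical axis. Red marks the 271 genes higher after exercise and blue the 142 lower, and the inducible HSP70 genes lie at the top and Cx3cr1 and Ccr2 near the bottom.

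The largest rises were in the inducible HSP70 chaperones, which hold unfolded proteins until they can refold. Hspa1b (ENSMUSG00000090877) ran from 0.811 to 5.89 CPM (median 2.40) in ZT0-SED and from 7.09 to 189.6 CPM (median 66.2) in ZT0-EX. Hspa1a (ENSMUSG00000091971) ran from 0.562 to 3.72 CPM (median 1.81) in ZT0-SED and from 5.43 to 136 CPM (median 48.6) in ZT0-EX. Every exercised library lay above every sedentary one for both genes. On the log2 scale Hspa1b rose by 4.65 ± 0.43 (SE, n = 6 per group here and below, adjusted p = 0.000118) and Hspa1a by 4.57 ± 0.47 (adjusted p = 0.000181). The pair is near-identical in sequence and reads can be exchanged between its members, so their separate values are uncertain. The HSP110 gene Hsph1, whose product recharges HSP70, ran from 40.5 to 61.0 CPM (median 55.9) in ZT0-SED and from 114 to 297 CPM (median 210.4) in ZT0-EX. It rose by 1.91 ± 0.20, with no overlap between groups. Hspa8, the constitutive member, rose by 0.57 ± 0.14 (adjusted p = 0.0430). It passed in 3 of 12 leave-one-out fits (adjusted p 0.109 without ZT0-EX 2). Of 13 measured members of the HSP70 and HSP110 family, 5 rose and 0 fell, with a list median of 0.23 against -0.01 over all genes. The fifth rise was in Hspa1l, a neighbour of Hspa1a on the chromosome (0.66 ± 0.15), which passed in 5 of 12 leave-one-out fits (adjusted p 0.0871 without ZT0-EX 5). Over the 8 libraries fitted alone, Hspa1b passed (adjusted p = 0.0317), while Hspa1a (4.10, adjusted p = 0.0549) and Hsph1 (1.63, adjusted p = 0.0534) did not.

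The HSP70, HSP90 and DNAJ lists held 5, 6 and 3 rises. Of these, 5 hold a short run of the heat shock element close to a start site (Hspa1a, Hspa1b, Hsph1, Dnaja1 and Dnajb4), and 4 are shown for that reason. The element repeats the unit GAA and its reverse TTC at a fixed spacing. Runs of GAANNTTC, a pair that was added after seeing the data, and of TTCNNGAA were searched on both strands in the 250 bases before each start site of RefSeq (GRCm38.p6). Promoters were matched by symbol for 10644 of 14611 genes tested, and a gene counted once if any of its start sites held a match. GAANNTTC was found for 6.03% of all these genes, 7.98% of the 213 that rose, 12.3% of the 65 that rose more than 2-fold and 7.69% of the 104 that fell. TTCNNGAA was found for 7.25%, 8.92%, 13.8% and 6.73% in the same order. The longer run of GAA, TTC and GAA, each unit 2 bases from the next, contains both pairs and was found for 0.470% of all and for 0 of the rises. Hspa1a and Hspa1b share 247 of the 250 bases before their start sites and have the stretch below in common, at chr17:34972227-34972286 and chr17:34959309-34959368 on the minus strand, outside the genes annotated by GENCODE on that build. The Hsph1 stretch is at chr5:149636351-149636380 on the minus strand, within an annotated exon of Hsph1, and the Dnaja1 stretch at chr4:40722333-40722362 on the plus strand, within annotated exons of Dnaja1 and Gm6297. Capitals mark the match, which begins 104, 33 and 124 bases before the start site.
Hspa1a and Hspa1b: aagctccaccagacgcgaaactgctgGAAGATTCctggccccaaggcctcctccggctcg
Hsph1: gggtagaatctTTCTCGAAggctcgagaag
Dnaja1: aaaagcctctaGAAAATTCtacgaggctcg

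Both cytosolic HSP90 genes and several co-chaperones rose too. HSP90 folds signalling proteins, steroid receptors and kinases among them. Of 17 measured members 6 rose and 0 fell (median 0.27, all genes -0.01). The inducible Hsp90aa1 ran from 119 to 191 CPM (median 139.7) in ZT0-SED and from 279 to 508 CPM (median 379) in ZT0-EX and rose by 1.40 ± 0.17 (adjusted p = 0.000528). The constitutive Hsp90ab1 was among the most abundant genes that rose. It ran from 819 to 1158 CPM (median 891) in ZT0-SED and from 1511 to 1873 CPM (median 1585) in ZT0-EX, a rise of 0.82 ± 0.12 (adjusted p = 0.00156). In both genes the exercised libraries all lay above the sedentary ones. Stip1, which passes clients from HSP70 to HSP90, rose by 0.70 ± 0.11, and Ahsa2, a relative of the HSP90 activator Ahsa1, by 0.77 ± 0.12. Chordc1 rose by 0.67 ± 0.14 and passed in 8 of 12 leave-one-out fits (adjusted p 0.0727 without ZT0-EX 2). The remaining rise, Fkbp5, is described with the glucocorticoid-responsive genes. Among 36 DNAJ proteins, which stimulate the ATPase of HSP70, Dnajb1 (1.28 ± 0.19, adjusted p = 0.00218), Dnaja1 (1.16 ± 0.15, adjusted p = 0.00111) and Dnajb4 (0.64 ± 0.15, adjusted p = 0.0366) rose and 33 did not pass. Dnajb4 passed in 4 of 12 leave-one-out fits (adjusted p 0.104 without ZT0-EX 2). Dnajb1 ran from 17.4 to 26.7 CPM (median 21.4) in ZT0-SED and from 30.8 to 79.1 CPM (median 48.6) in ZT0-EX, without overlap. None of 13 small heat shock proteins and BAG co-chaperones passed, with Bag3 at 0.53 ± 0.14 (adjusted p = 0.0604) and Hspb1 at 0.63 ± 0.22 (adjusted p = 0.127). With length offsets both passed (Bag3 0.60, adjusted p = 0.00975, and Hspb1 0.97, adjusted p = 0.000514). None of 10 mitochondrial chaperones passed in either fit. With the 8 libraries alone, 1 gene of the HSP90 list (Fkbp5) and 0 of the DNAJ list passed, with Hsp90aa1 at 1.22 (adjusted p = 0.131), Hsp90ab1 at 0.82 (adjusted p = 0.118) and Dnajb1 at 1.28 (adjusted p = 0.101).

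Stress pathways of the endoplasmic reticulum and of translation control showed a smaller set of rises. Of 24 folding and disposal factors of the endoplasmic reticulum 3 rose and 0 fell (median 0.19). They were Herpud1 (0.73 ± 0.11, adjusted p = 0.00220) and Syvn1 (0.58 ± 0.13), both parts of the machinery that removes misfolded proteins, and Hyou1 (0.65 ± 0.12), an HSP110 relative in that compartment. Herpud1 ran from 81.0 to 104 CPM (median 85.2) in ZT0-SED and from 124 to 171 CPM (median 145) in ZT0-EX, without overlap. Syvn1 passed in 6 of 12 leave-one-out fits (adjusted p 0.0726 without ZT0-EX 2). Of 23 genes of the integrated stress response, which slows translation and raises amino acid supply, 5 rose and 0 fell (median 0.14). Atf3, a transcription factor of that response, ran from 4.49 to 7.47 CPM (median 4.90) in ZT0-SED and from 11.5 to 44.9 CPM (median 20.5) in ZT0-EX and rose by 2.23 ± 0.30 (adjusted p = 0.00116). Ppp1r15a, the phosphatase subunit that ends the translation block, rose by 0.81 ± 0.15. Chac1, which degrades glutathione, ran from 0.187 to 0.979 CPM (median 0.721) in ZT0-SED and from 0.606 to 3.80 CPM (median 2.67) in ZT0-EX, a rise of 2.00 ± 0.37 at low counts and with overlap between groups. Slc3a2, a subunit of amino acid transporters, rose by 0.55 ± 0.13 and passed in 4 of 12 leave-one-out fits (adjusted p 0.104 without ZT0-EX 5). The fifth, Ddit4, an inhibitor of the growth kinase mTORC1, ran from 22.0 to 37.7 CPM (median 27.3) in ZT0-SED and from 71.6 to 171 CPM (median 120.5) in ZT0-EX, a 4.15-fold rise (log2 2.05 ± 0.16, adjusted p = 2.90e-05). Ddit4 was the 1 of these genes to pass also in the 8-library fit (2.13, adjusted p = 0.00548), where Atf3 stood at 2.41 (adjusted p = 0.0830).

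Immediate early transcription factors of the NR4A and AP-1 families were among the rises. All 3 NR4A orphan nuclear receptors rose. Nr4a3 (ENSMUSG00000028341) ran from 1.14 to 2.57 CPM (median 1.46) in ZT0-SED and from 6.72 to 27.8 CPM (median 15.6) in ZT0-EX, a rise of 3.23 ± 0.34 (adjusted p = 0.000211). Nr4a1 ran from 2.00 to 9.66 CPM (median 5.28) in ZT0-SED and from 19.9 to 67.1 CPM (median 33.0) in ZT0-EX, a rise of 2.79 ± 0.39 (adjusted p = 0.00145). Neither gene overlapped between groups. Nr4a2 rose by 1.68 ± 0.38 at lower levels and passed in 3 of 12 leave-one-out fits (adjusted p 0.0744 without ZT0-EX 4). Of 12 measured FOS, JUN and small MAF factors, which pair to form AP-1 and related dimers, 7 rose and 0 fell (median 0.95, all genes -0.01). Fos ran from 0.808 to 2.11 CPM (median 1.13) in ZT0-SED and from 2.32 to 8.26 CPM (median 4.26) in ZT0-EX, a rise of 1.74 ± 0.32 (adjusted p = 0.00977). Fosl2 rose by 1.38 ± 0.22, Maff by 1.16 ± 0.16, Mafk by 0.73 ± 0.12 and Jdp2, whose product represses AP-1 sites, by 1.24 ± 0.13. Atf3, given above, is the sixth of these rises. Fosb, named after its values were seen, rose by 2.10 ± 0.44 (adjusted p = 0.0192) and passed in 10 of 12 leave-one-out fits (adjusted p 0.0644 without ZT0-EX 5). In the 8-library fit, Jdp2 (adjusted p = 0.0236), Maff (0.0456) and Nr4a3 (0.0130) passed, while Fos (2.10, adjusted p = 0.112) and Nr4a1 (3.15, adjusted p = 0.0549) did not.

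Early genes outside these families split. Of 20 EGR, IER and other serum-responsive genes 5 rose and 1 fell (median 0.17), with Btg2 and Btg1 described below. Zfp36, whose product destabilises inflammatory mRNAs, ran from 7.74 to 14.1 CPM (median 11.0) in ZT0-SED and from 19.3 to 24.2 CPM (median 19.8) in ZT0-EX, a rise of 0.93 ± 0.12 (adjusted p = 0.000679). Ccn2, a matrix-associated growth factor, rose by 1.10 ± 0.15 and its relative Ccn1 by 0.75 ± 0.16. The small GTPase gene Gem rose by 0.87 ± 0.18. Ccn1 passed in 5 of 12 leave-one-out fits (adjusted p 0.0820 without ZT0-EX 3), and Gem passed in 7 of 12 leave-one-out fits (adjusted p 0.0644 without ZT0-EX 5). Egr1, the best known gene of this list, stood at 0.20 ± 0.22 (adjusted p = 0.567), with -0.15 within flow cell 1 and 0.45 within flow cell 2. Its libraries overlapped, at 7.09 to 11.4 CPM (median 9.58) in ZT0-SED and 6.15 to 17.6 CPM (median 9.77) in ZT0-EX. Among 9 MAP kinase phosphatases, Dusp1 rose by 0.90 ± 0.10 (adjusted p = 0.000295) and Dusp10 changed by -0.93 ± 0.15 (adjusted p = 0.00462), while 7 did not pass. Dusp1 switches off MAP kinases in the nucleus and ran from 29.2 to 38.1 CPM (median 33.9) in ZT0-SED and from 54.4 to 70.4 CPM (median 64.2) in ZT0-EX. Dusp10, which acts on JNK and p38, ran from 4.18 to 7.44 CPM (median 5.47) in ZT0-SED and from 2.33 to 3.37 CPM (median 3.10) in ZT0-EX. The groups of both genes did not overlap. Sik1, a kinase induced by cyclic AMP that restrains CREB coactivators, ran from 5.62 to 15.5 CPM (median 8.50) in ZT0-SED and from 32.2 to 85.9 CPM (median 56.7) in ZT0-EX. It rose by 2.69 ± 0.25 (adjusted p = 0.000128) and was the 1 of 16 genes of CREB signalling to pass (6.25%, all genes 2.83%). All 16 had positive differences, with a median of 0.40 against -0.01 over all genes. With length offsets the list median was 0.22, and 3 rose. Over the 8 libraries fitted alone, Sik1 (adjusted p = 0.0168), Dusp1 (0.0255) and Zfp36 (0.0447) passed and Dusp10 (-1.09, adjusted p = 0.132) did not.

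Full cyclic AMP response elements (TGACGTCA, which reads the same on both strands and cannot be an AP-1 site TGANTCA) lay before the start sites of several of these rises, and 4 are shown. The element was found for 2.90% of the 10644 genes with a promoter, 5.16% of the 213 that rose, 3.08% of the 65 that rose more than 2-fold and 2.88% of the 104 that fell. It begins 51, 29, 143 and 166 bases before a start site of Errfi1, Maff, Dusp1 and Btg2. The stretches are at chr4:150854993-150855052 and chr15:79347460-79347519 on the plus strand and at chr17:26508582-26508641 and chr1:134079288-134079347 on the minus strand, none within an annotated exon. The first 2 belong to 1 of several annotated start sites. Capitals mark the element.
Errfi1: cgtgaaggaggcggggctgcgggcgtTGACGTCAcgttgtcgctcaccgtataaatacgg
Maff: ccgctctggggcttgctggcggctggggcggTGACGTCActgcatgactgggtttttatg
Dusp1: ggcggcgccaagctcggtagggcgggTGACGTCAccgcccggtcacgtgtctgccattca
Btg2: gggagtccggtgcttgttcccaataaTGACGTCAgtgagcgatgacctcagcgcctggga

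**Figure D3:**
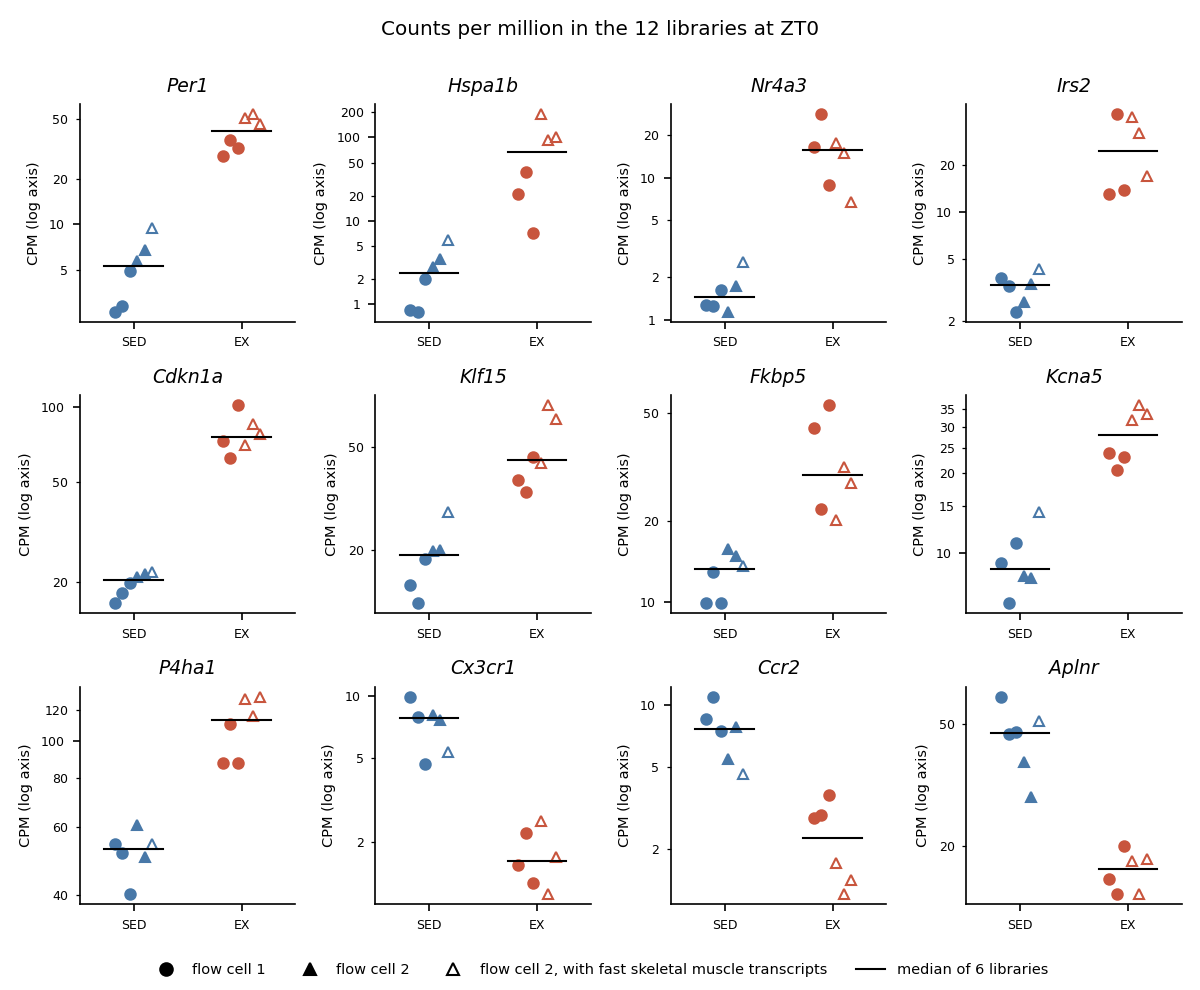
CPM of 12 genes (log axis) in the 6 sedentary (blue) and 6 exercised (red) ZT0 libraries, circles for flow cell 1 and triangles for flow cell 2, open where fast skeletal muscle transcripts were abundant, with the median of 6 as a line. In all 12 panels the groups do not overlap. These genes were picked from those past the threshold, and over all 14611 genes tested 246 (1.68%) do not overlap.

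Glucocorticoid-responsive genes held the largest number of rises of the 57 lists. As lists and members were chosen with earlier results of these data known, the rank and the counts describe and do not test. Of 23 measured members 15 rose and 0 fell, with a median log2 difference of 1.21 against -0.01 over all genes. The receptor genes themselves, Nr3c1 and Nr3c2, were among the 8 that did not pass. The rest, named after their values were seen, were Mt2 (1.03, adjusted p = 0.0563), Zbtb16 (1.22, 0.132), Tat (1.21, 0.222), Lcn2 (0.24, 0.385), Mt1 (0.35, 0.397) and Angptl4 (-0.27, 0.518). Per1 (ENSMUSG00000020893), a clock gene with a glucocorticoid response element, ran from 2.61 to 9.41 CPM (median 5.30) in ZT0-SED and from 28.5 to 54.0 CPM (median 41.5) in ZT0-EX. It rose 7.99-fold (log2 3.00 ± 0.18, adjusted p = 2.66e-06), 3.23 and 2.80 on the first and the second flow cell. The cell cycle inhibitor Cdkn1a ran from 16.4 to 21.9 CPM (median 20.3) in ZT0-SED and from 62.2 to 101 CPM (median 75.4) in ZT0-EX, a 3.97-fold rise (log2 1.99 ± 0.13, adjusted p = 3.19e-06). These had the smallest adjusted p of the list, and their groups did not overlap. Fkbp5, a co-chaperone that lowers hormone binding of the receptor, ran from 9.92 to 15.8 CPM (median 13.3) in ZT0-SED and from 20.2 to 53.4 CPM (median 29.6) in ZT0-EX and rose by 1.35 ± 0.24 (adjusted p = 0.00736), with 1.77 within flow cell 1 and 0.82 within flow cell 2. Errfi1, an inhibitor of the EGF receptor, rose by 1.41 ± 0.14. Of the genes named after their values were seen, 4 of this list rose: Tsc22d3 (1.49 ± 0.17), known as GILZ, the kinase gene Sgk1 (1.03 ± 0.13), Cebpd (1.40 ± 0.18) and Nfkbia (1.12 ± 0.16), the inhibitor of NF-kappaB. Hif3a ran from 0.253 to 0.749 CPM (median 0.344) in ZT0-SED and from 0.535 to 2.99 CPM (median 1.77) in ZT0-EX, a rise of 2.06 ± 0.31 (adjusted p = 0.00248) at low counts with overlapping groups. With the 8 libraries alone, 10 of the list rose and 0 fell, with a median of 1.25. With length offsets 17 passed, with a median of 1.30. The list holds genes that other lists here also hold, among them Per1, Dusp1, Klf9, Klf15, Cdkn1a, Ddit4, Fkbp5, Hif3a, Pdk4 and Cebpb. It also names genes that many other signals can raise too.

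A strict form of the glucocorticoid response element, GNACA and TGTNC with 3 bases between them, was rare before the start sites of all genes, and the 5 rises that hold it are shown. Both strands were read. The match of Sgk1 contains a GAANNTTC pair, and that of Map3k6 overlaps a TTCNNGAA pair. It was found for 0.348% of the 10644 genes with a promoter, 2.35% of the 213 that rose, 7.69% of the 65 that rose more than 2-fold and 0.962% of the 104 that fell. A match is a description of these letters, not of a bound site. The 5 are Fam107a, Map3k6, Kcna5, Slc10a6 and Sgk1, whose log2 rises were 2.61 ± 0.26, 1.71 ± 0.18, 1.54 ± 0.17, 1.22 ± 0.24 and 1.03 ± 0.13. Map3k6 encodes a kinase upstream of stress-activated MAP kinases and Slc10a6 a carrier of sulfated steroids, and both were named after their values were seen. The stretches are at chr14:8309861-8309920, chr6:126535578-126535637 and chr5:103629530-103629589 on the minus strand and at chr4:133240614-133240673 and chr10:21993679-21993738 on the plus strand, none within an annotated exon. The match begins 118, 181, 59, 163 and 188 bases before the start site, in Fam107a and Sgk1 that of 1 of several transcripts. Capitals mark the match.
Fam107a: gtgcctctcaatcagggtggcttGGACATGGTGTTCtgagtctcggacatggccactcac
Map3k6: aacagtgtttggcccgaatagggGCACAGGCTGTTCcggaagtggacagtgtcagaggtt
Kcna5: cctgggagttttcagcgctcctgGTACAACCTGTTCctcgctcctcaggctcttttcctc
Slc10a6: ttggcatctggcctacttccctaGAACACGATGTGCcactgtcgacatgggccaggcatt
Sgk1: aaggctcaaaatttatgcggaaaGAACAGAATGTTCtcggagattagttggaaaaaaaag

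Further motifs were counted in the same windows. The E-box CACGTG, bound by clock and MYC-related factors, was found for 9.76% of all genes with a promoter, 17.4% of the 213 rises and 8.65% of the 104 falls. TGANTCA, the AP-1 site, was found for 5.54%, 7.98% and 6.73%, and the NR4A site AAAGGTCA for 1.13%, 0.469% and 0.962%. The D-box TTATGNAA was found for 2.38%, 1.41% and 4.81%. TATAAA, the TATA box, was found for 8.39%, 12.2% and 18.3%, and the CArG box for 1.42%, 1.88% and 0.962%. TGACGNNA, a looser form that includes the full cyclic AMP element, was found for 10.4%, 16.9% and 8.65%. All were read on both strands, and these shares carry no test.

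Several Krueppel-like factors, zinc finger regulators of transcription, rose. Of 13 measured 6 rose and 0 fell (median 0.61). Klf15, which drives amino acid and lipid use in heart and muscle, ran from 12.4 to 28.1 CPM (median 19.0) in ZT0-SED and from 33.5 to 72.8 CPM (median 44.7) in ZT0-EX, a rise of 1.39 ± 0.16 (adjusted p = 0.000301). Klf9 rose by 0.97 ± 0.16, Klf11 by 0.91 ± 0.14, Klf6 by 0.81 ± 0.10, and Klf4 by 0.73 ± 0.11. None of these 5 overlapped between groups. Klf13 rose by 0.57 ± 0.14, passed in 2 of 12 leave-one-out fits (adjusted p 0.122 without ZT0-SED 5), and did not pass with length offsets (0.33, adjusted p = 0.200). Klf15 and Klf6 passed in the 8-library fit (adjusted p = 0.0216 and 0.0292).

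Of 22 measured clock genes 4 rose and 0 fell (median 0.26), and they included the period genes Per1 and Per2. The third period gene, Per3, stood at 0.35 ± 0.18 (adjusted p = 0.233) and was named after its values were seen. Besides Per1, Per2 ran from 2.09 to 4.06 CPM (median 3.55) in ZT0-SED and from 7.32 to 13.2 CPM (median 11.6) in ZT0-EX, a rise of 1.70 ± 0.18 (adjusted p = 0.000220) without overlap. The repressors Bhlhe40 (0.92 ± 0.19, adjusted p = 0.0164) and Nfil3 (0.71 ± 0.16, adjusted p = 0.0315) also rose. Bhlhe40 passed in 9 of 12 leave-one-out fits (adjusted p 0.0548 without ZT0-SED 5), and Nfil3 passed in 7 of 12 leave-one-out fits (adjusted p 0.0943 without ZT0-EX 5). Bmal1, the activating partner of CLOCK, ran from 20.6 to 30.2 CPM (median 24.7) in ZT0-SED and from 23.2 to 29.96 CPM (median 27.2) in ZT0-EX, with a difference of 0.07 ± 0.09 (adjusted p = 0.622). Its groups overlapped. The repressor Nr1d1 stood at 0.27 ± 0.21 (adjusted p = 0.404) and the output factor Dbp at -0.37 ± 0.14 (adjusted p = 0.146). In the 8-library fit Per1 passed (3.23, adjusted p = 0.00329) and Per2 (1.57, adjusted p = 0.0830), Bhlhe40 (adjusted p = 0.147) and Nfil3 (adjusted p = 0.391) did not.

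Single genes of growth inhibition and of insulin signalling rose, while most CDK inhibitors and most insulin signalling genes did not pass. Tob2, an antiproliferative protein that recruits mRNA deadenylases, ran from 13.9 to 28.7 CPM (median 17.3) in ZT0-SED and from 43.9 to 77.0 CPM (median 52.9) in ZT0-EX, a rise of 1.62 ± 0.15 (adjusted p = 9.99e-05). Of 5 measured TOB and BTG genes, Btg2 rose too (0.86 ± 0.13), and Btg1 changed by -0.59 ± 0.12 (adjusted p = 0.0152). Btg1 passed in 11 of 12 leave-one-out fits (adjusted p 0.0510 without ZT0-EX 5). Of 9 CDK inhibitors and GADD45 genes Cdkn1a and Gadd45b (0.90 ± 0.20) rose, 7 did not pass, and the list median was -0.27. Gadd45b passed in 6 of 12 leave-one-out fits (adjusted p 0.0943 without ZT0-EX 5). Among 23 genes of proliferating cells 1 fell, Cdk1 (-0.90 ± 0.19, adjusted p = 0.0187), which was named after its values were seen, and the list median was -0.35. Differences were negative in 22 of the 23, where the median over all genes was -0.01. These genes share the libraries and are not independent. In the list 4.35% passed, where 2.83% of all genes tested did. With length offsets 3 of the list fell, and its median was -0.41. Cdk1 passed in 11 of 12 leave-one-out fits (adjusted p 0.0584 without ZT0-EX 2). Depp1, a FOXO target linked to autophagy, ran from 12.9 to 21.2 CPM (median 16.5) in ZT0-SED and from 46.5 to 94.6 CPM (median 70.2) in ZT0-EX, a rise of 2.06 ± 0.16 (adjusted p = 1.86e-05). The secreted glycoprotein gene Stc1 rose by 1.78 ± 0.17. Irs2, an adaptor of the insulin receptor, ran from 2.28 to 4.33 CPM (median 3.42) in ZT0-SED and from 13.1 to 42.6 CPM (median 24.8) in ZT0-EX, a 7.94-fold rise (log2 2.99 ± 0.33, adjusted p = 0.000245). Of 25 genes of insulin signalling and glucose transport, Foxo3 (0.65 ± 0.15) and Tsc2 (0.62 ± 0.15) rose too, and 22 did not pass. Foxo3 passed in 5 of 12 leave-one-out fits (adjusted p 0.100 without ZT0-EX 3), and did not pass with length offsets (0.39, adjusted p = 0.132). Tsc2 passed in 3 of 12 leave-one-out fits (adjusted p 0.110 without ZT0-SED 5). Tob2, Depp1, Stc1 and Irs2 passed in the 8-library fit (adjusted p = 0.00421, 0.0130, 0.00375 and 0.0472). Btg2, Btg1, Gadd45b, Cdk1, Foxo3 and Tsc2 did not, with adjusted p from 0.114 (Btg2) to 0.383 (Foxo3).

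Fuel use lists held 0 to 2 genes past the threshold each, where 2.83% of all genes tested passed. The shares were 9.09% for pyruvate dehydrogenase control, 3.33% for fatty acid use, 11.8% for triglyceride turnover and 4.76% for glycolysis. They were 5.26% for cholesterol genes and 0% for PGC-1 partners and branched-chain amino acid breakdown. Pdk4, which blocks pyruvate entry into mitochondria, ran from 103 to 316 CPM (median 216) in ZT0-SED and from 338 to 666 CPM (median 360.1) in ZT0-EX, without overlap. It rose by 1.02 ± 0.21 (adjusted p = 0.0192), passed in 8 of 12 leave-one-out fits (adjusted p 0.0665 without ZT0-EX 3), and was the 1 of 11 genes of pyruvate dehydrogenase control to pass. The lipid droplet gene Plin4 rose by 0.98 ± 0.21 (adjusted p = 0.0257) and was the 1 of 30 genes of fatty acid use to pass. Plin4 passed in 5 of 12 leave-one-out fits (adjusted p 0.0790 without ZT0-EX 3). Of 17 genes of triglyceride turnover, the phosphatidate phosphatases Lpin2 (0.67 ± 0.12, adjusted p = 0.00939) and Lpin3 (0.93 ± 0.21, adjusted p = 0.0309) rose. Lpin3 passed in 5 of 12 leave-one-out fits (adjusted p 0.0978 without ZT0-EX 3). Pfkfb3, which makes an activator of glycolysis, rose by 0.91 ± 0.21 (adjusted p = 0.0336) and was the 1 of 21 glycolysis genes to pass. Pfkfb3 passed in 4 of 12 leave-one-out fits (adjusted p 0.101 without ZT0-SED 5). None of 13 PGC-1 coactivators and partners passed (median 0.29, all genes -0.01, 11 with a positive difference). Ppargc1a, the coactivator often followed after exercise, ran from 24.6 to 78.6 CPM (median 56.5) in ZT0-SED and from 63.7 to 150.3 CPM (median 104) in ZT0-EX, a difference of 0.86 ± 0.23 (adjusted p = 0.0652) that passed with length offsets (0.67, adjusted p = 0.0228). Over the 8 libraries fitted alone none of the genes of this paragraph passed, with Pdk4 at 0.81 (adjusted p = 0.393) and Ppargc1a at 0.89 (adjusted p = 0.295). None of 13 genes of branched-chain amino acid breakdown passed. Of 19 cholesterol genes 1 fell, Msmo1 (-0.49 ± 0.11, adjusted p = 0.0278), named after its values were seen, which passed in 5 of 12 leave-one-out fits (adjusted p 0.0823 without ZT0-EX 4).

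Genes of the contractile and electrical apparatus were mostly below the threshold. Over all genes tested, 2.83% passed. The shares were 7.69% for potassium channels, 13.0% for natriuretic peptide and load-responsive genes, 4.35% for atrogenes and autophagy and 5.88% for adrenergic signalling. None of 23 sarcomere genes and none of 22 genes of excitation-contraction coupling passed (medians 0.15 and 0.13), with Myh6, the adult heavy chain, at 0.62 ± 0.19 (adjusted p = 0.0907) and the titin gene Ttn at 0.89 ± 0.33 (adjusted p = 0.139). With length offsets Ttn stood at -0.15. Kcna5, a voltage-gated potassium channel that repolarises the atrial and mouse ventricular membrane, ran from 6.43 to 14.2 CPM (median 8.65) in ZT0-SED and from 20.5 to 36.1 CPM (median 27.8) in ZT0-EX, a rise of 1.54 ± 0.17 (adjusted p = 0.000245) without overlap. Kcna5 is also expressed in atria, and 9 atrial markers, Kcna5 included, summed to 364 to 4571 CPM in ZT0-SED and 267 to 3182 CPM in ZT0-EX. Of the 26 potassium channel genes Kcne4, a channel subunit, rose too (0.65 ± 0.16) and passed in 1 of 12 leave-one-out fits (adjusted p 0.135 without ZT0-EX 3). Kcna5 passed in the 8-library fit (adjusted p = 0.0255), while Kcne4 and, of the genes that follow, Cebpb, Rcan1, Cited4, Rrad and Pde3b did not (adjusted p from 0.0913 for Rrad to 0.436 for Rcan1). Among 23 natriuretic peptide and load-responsive genes, the transcription factor gene Cebpb rose by 1.46 ± 0.20 (adjusted p = 0.00142), the calcineurin inhibitor gene Rcan1 by 0.50 ± 0.12 (adjusted p = 0.0366), and the coactivator gene Cited4 changed by -1.07 ± 0.19 (adjusted p = 0.00674). Cebpb ran from 3.68 to 11.1 CPM (median 7.08) in ZT0-SED and from 9.91 to 34.9 CPM (median 20.1) in ZT0-EX, and Cited4 from 7.36 to 37.9 CPM (median 15.2) in ZT0-SED and from 4.32 to 14.2 CPM (median 8.11) in ZT0-EX. The groups of both overlapped. Rcan1 passed in 4 of 12 leave-one-out fits (adjusted p 0.113 without ZT0-EX 3). The natriuretic peptide genes Nppa (0.29 ± 0.64, adjusted p = 0.787) and Nppb (-0.10 ± 0.17, adjusted p = 0.738) did not pass. Rrad, a small GTPase that inhibits L-type calcium channels and 1 of the 5 most abundant falls, ran from 64.4 to 149 CPM (median 107) in ZT0-SED and from 29.4 to 86.0 CPM (median 50.5) in ZT0-EX, a difference of -1.08 ± 0.23 (adjusted p = 0.0239). Rrad passed in 8 of 12 leave-one-out fits (adjusted p 0.0784 without ZT0-EX 3). Fbxo32, the muscle ubiquitin ligase atrogin-1, rose by 1.12 ± 0.25 (adjusted p = 0.0278) as the 1 of 23 atrogenes and autophagy genes to pass, 0.73 within flow cell 1 and 1.61 within flow cell 2. It is also a skeletal muscle gene, stood at 0.77 (adjusted p = 0.391) in the 8-library fit, and passed in 6 of 12 leave-one-out fits (adjusted p 0.0935 without ZT0-EX 3). Of 17 adrenergic signalling genes Pde3b, a phosphodiesterase named after its values were seen, rose by 0.93 ± 0.18 (adjusted p = 0.0113).

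Of 34 collagen and matrix genes 4 rose and 0 fell (median 0.16), and 3 of the rises encode enzymes that modify collagen. The list median was 0.43 within flow cell 1 and -0.07 within flow cell 2. P4ha1 and P4ha2, subunits of the prolyl hydroxylase that stabilises collagen, rose by 1.08 ± 0.11 (adjusted p = 0.000181) and 0.81 ± 0.13 (adjusted p = 0.00492). P4ha1 ran from 40.1 to 60.6 CPM (median 52.6) in ZT0-SED and from 87.5 to 130.1 CPM (median 113) in ZT0-EX, without overlap. The lysyl hydroxylase gene Plod1 rose by 0.60 ± 0.12 and Thbs1, a matrix protein that curbs vessel growth, by 1.08 ± 0.20. Plod1 passed in 6 of 12 leave-one-out fits (adjusted p 0.0570 without ZT0-EX 3). Other collagen-modifying enzymes of the list, named after their values were seen, did not pass. Plod2 stood at 0.51 (adjusted p = 0.108), Lox at -0.03, Loxl1 at -0.28 and Loxl2 at 0.11. In the 8-library fit none of the 34 passed, with P4ha1 at 0.97 (adjusted p = 0.0687), P4ha2 at 0.70 (adjusted p = 0.258), Thbs1 at 1.14 (adjusted p = 0.254) and Plod1 at 0.45 (adjusted p = 0.387). Of 21 genes of hypoxia and vessel growth, Hif3a and the endothelial nitric oxide synthase gene Nos3 (0.45 ± 0.10, adjusted p = 0.0252) rose, and Aplnr changed by -1.44 ± 0.16 (adjusted p = 0.000303). Nos3 passed in 5 of 12 leave-one-out fits (adjusted p 0.0774 without ZT0-EX 5). Aplnr, the apelin receptor of endothelial and heart muscle cells, ran from 28.9 to 61.6 CPM (median 46.9) in ZT0-SED and from 13.9 to 19.99 CPM (median 16.8) in ZT0-EX, a 2.72-fold fall without overlap, and passed in the 8-library fit (adjusted p = 0.0132), as did Hif3a (0.0282), while Nos3 did not (0.238). The growth factor gene Vegfa ran from 90.6 to 319 CPM (median 139) in ZT0-SED and from 126 to 447 CPM (median 282) in ZT0-EX and did not pass (0.76 ± 0.23, adjusted p = 0.0970). None of 12 endothelial markers passed, and they summed to 2015 to 2974 CPM in ZT0-SED and 2073 to 2648 CPM in ZT0-EX. Among 12 fibroblast markers the transcription factor gene Tcf21 fell (-0.98 ± 0.22, adjusted p = 0.0292), -0.54 and -1.36 on the first and the second flow cell, and passed in 5 of 12 leave-one-out fits (adjusted p 0.0866 without ZT0-EX 5). The fibroblast markers summed to 2728 to 3662 CPM in ZT0-SED and 3340 to 3935 CPM in ZT0-EX on flow cell 1, and to 3111 to 4471 CPM and 2866 to 3042 CPM on flow cell 2. Their part in the Tcf21 value was not tested.

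Receptors that guide white blood cells held more falls than any other of the 57 lists. The lists and members were chosen with earlier results of these data known, so this rank is a description only. Of 22 measured receptors 7 fell and 2 rose (median -0.41, all genes -0.01). The list median was -0.12 within flow cell 1, -0.71 within flow cell 2 and -0.14 in the 8-library fit. Ccr2 (ENSMUSG00000049103), the receptor by which monocytes enter tissue, ran from 4.63 to 11.0 CPM (median 7.64) in ZT0-SED and from 1.21 to 3.65 CPM (median 2.27) in ZT0-EX, a 3.38-fold fall (log2 -1.76 ± 0.18, adjusted p = 0.000181). Cx3cr1, the fractalkine receptor of monocytes and resident macrophages, ran from 4.70 to 9.88 CPM (median 7.78) in ZT0-SED and from 1.12 to 2.51 CPM (median 1.62) in ZT0-EX, a change of -2.08 ± 0.24 (adjusted p = 0.000309). In both genes every exercised library lay below every sedentary one. Gpr183, an oxysterol receptor, changed by -1.90 ± 0.25 and Gpr34, a lysophospholipid receptor of macrophages, by -1.30 ± 0.18. P2ry13 (-2.02 ± 0.32) and Ccr1 (-1.18 ± 0.26), named after their values were seen, also fell, and Ccr1 passed in 6 of 12 leave-one-out fits (adjusted p 0.0834 without ZT0-EX 2). The rises were S1pr1 (1.07 ± 0.13, adjusted p = 0.000497), a sphingosine phosphate receptor that endothelial cells also carry, and Cxcr4 (0.80 ± 0.17), named after its values were seen, which passed in 5 of 12 leave-one-out fits (adjusted p 0.0743 without ZT0-EX 4). S1pr1 ran from 27.7 to 52.9 CPM (median 49.3) in ZT0-SED and from 77.2 to 114 CPM (median 89.9) in ZT0-EX, without overlap. With the 8 libraries alone, Ccr2, Cx3cr1 and Gpr34 fell (adjusted p = 0.0366, 0.0290 and 0.0297) and S1pr1 and Cxcr4 rose, while Gpr183, P2ry13 and Ccr1 did not pass (0.120, 0.0573 and 0.238).

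Chemokine genes and markers of the cells that carry these receptors moved in part. Of 18 measured chemokines 3 fell and 0 rose (median -0.35), and all 3 encode ligands of CCR2. Ccl7 ran from 2.57 to 5.35 CPM (median 4.21) in ZT0-SED and from 0.984 to 2.22 CPM (median 1.46) in ZT0-EX, a change of -1.38 ± 0.20 (adjusted p = 0.00192). Ccl12 changed by -1.76 ± 0.28 (adjusted p = 0.00390) and Ccl2 by -0.99 ± 0.18 (adjusted p = 0.00905), both without overlap between groups. In the 8-library fit Ccl7 passed (-1.44, adjusted p = 0.0436), and Ccl12 (-2.01, adjusted p = 0.0672) and Ccl2 (-1.04, adjusted p = 0.141) did not. With length offsets Ccl2 did not pass (-0.77, adjusted p = 0.0545). Of 18 macrophage and monocyte markers, Ccr2, Cx3cr1, Cd180 (-1.22 ± 0.22) and the Fc receptor gene Fcgr1 (-0.68 ± 0.16) fell and Lyve1, a marker of resident macrophages and lymphatic vessels, rose (0.71 ± 0.18). Fcgr1 passed in 3 of 12 leave-one-out fits (adjusted p 0.102 without ZT0-EX 5), and Lyve1 passed in 2 of 12 leave-one-out fits (adjusted p 0.115 without ZT0-EX 3). Cd180, Fcgr1 and Lyve1 did not pass in the 8-library fit (adjusted p = 0.155, 0.384 and 0.132). The 19 markers of that list, 1 of them below the filter, summed to 677 to 835 CPM in ZT0-SED and 778 to 853 CPM in ZT0-EX on flow cell 1, and to 733 to 1081 CPM and 609 to 661 CPM on flow cell 2. The median of the list was 0.04 within flow cell 1 and -0.67 within flow cell 2. All 6 measured B lymphocyte markers had negative differences (median -1.01, all genes -0.01). Ighm, the heavy chain of the IgM receptor, ran from 15.1 to 28.6 CPM (median 16.6) in ZT0-SED and from 6.95 to 11.8 CPM (median 9.70) in ZT0-EX (-0.91 ± 0.17, adjusted p = 0.00957). Cd79a (-1.27 ± 0.28, adjusted p = 0.0278) and Ms4a1 (-1.44 ± 0.32, adjusted p = 0.0281) fell too. Cd79a passed in 6 of 12 leave-one-out fits (adjusted p 0.0856 without ZT0-EX 5), and Ms4a1 passed in 6 of 12 leave-one-out fits (adjusted p 0.0800 without ZT0-EX 2). In the 8-library fit Ighm (-0.98, adjusted p = 0.176), Cd79a (-1.24, adjusted p = 0.383) and Ms4a1 (-1.57, adjusted p = 0.221) did not pass. The 10 markers of the B cell list summed to 22.3 to 38.8 CPM in ZT0-SED and 12.2 to 16.9 CPM in ZT0-EX, without overlap. T and NK cell markers summed to 5.46 to 9.67 CPM against 4.21 to 6.11 CPM, and neutrophil markers to 5.31 to 14.1 CPM against 3.78 to 6.25 CPM, with Ngp at 0 in every library. Fewer cells of a type and less RNA per cell cannot be told apart in bulk tissue, and the part of cell numbers in the receptor and chemokine values was not tested. Of 28 interferon genes Ifit3, named after its values were seen, fell (-0.78 ± 0.17, adjusted p = 0.0281), none of 22 cytokine genes and receptors passed, and Socs1, an inhibitor of cytokine signalling, changed by -1.31 ± 0.32 (adjusted p = 0.0430). The shares past the threshold were 3.57% of the interferon list and 12.5% of the SOCS and CISH list, against 2.83% of all genes tested. Ifit3 passed in 5 of 12 leave-one-out fits (adjusted p 0.0831 without ZT0-EX 5), and Socs1 passed in 3 of 12 leave-one-out fits (adjusted p 0.114 without ZT0-EX 5). Neither passed in the 8-library fit (adjusted p = 0.372 and 0.180).

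Several large classes of abundant genes had medians below that of all genes, without any member passing. None of 36 ribosomal protein genes, 34 nuclear-encoded respiratory chain genes, 31 proteasome genes and 13 transcripts of the mitochondrial genome passed. Their medians were -0.39, -0.37, -0.27 and -0.11 against -0.01 over all genes. These are mostly short transcripts, and with length offsets the medians were -0.06, -0.04, -0.09 and 0.09. The median of the collagen and matrix list likewise changed from 0.16 to -0.04. Of 20 antioxidant genes Nfe2l2, which encodes their regulator NRF2 and was named after its values were seen, rose (0.46 ± 0.11, adjusted p = 0.0315) and passed in 3 of 12 leave-one-out fits (adjusted p 0.0937 without ZT0-EX 2). In that list 5% passed, where 2.83% of all genes tested did.

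**Figure D4:**
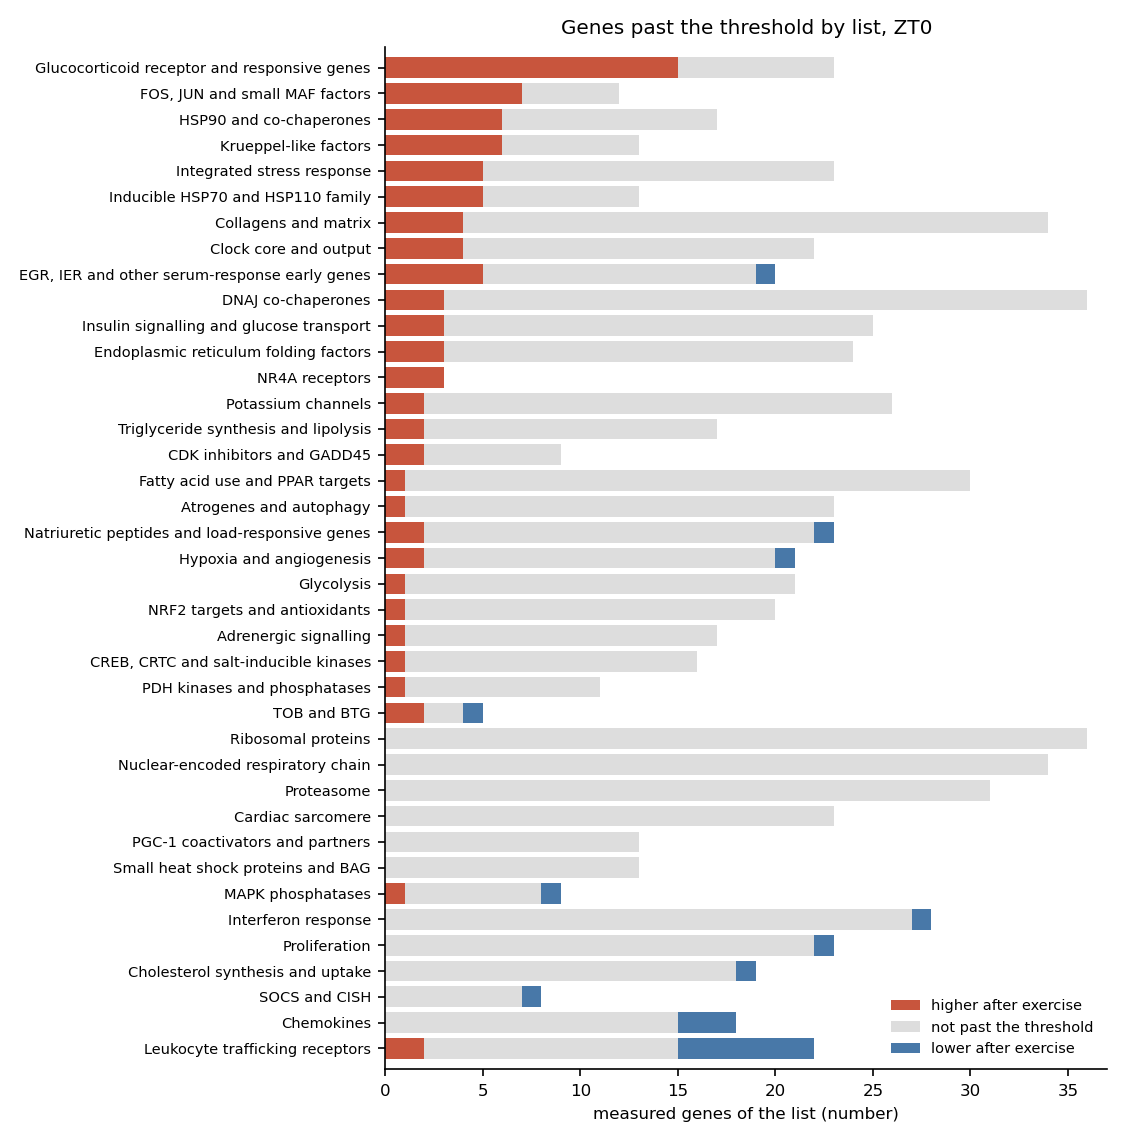
Each bar is 1 of 39 gene lists, with its number of measured genes on the horizontal axis, split into genes higher after exercise at ZT0 (red), not past the threshold (grey) and lower (blue). The glucocorticoid list has 15 rises among 23 genes, and the leukocyte receptor list has 7 falls and 2 rises among 22.

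Some genes passed in all of 3 fits. These were the fit to all 12 libraries with flow cell as a term, the 8-library fit and a fit to all 12 with the muscle marker level as a term. They numbered 47, 37 higher and 10 lower. Among the rises were Per1, Cdkn1a, Ddit4, Depp1, Tob2, Hspa1b, Sik1, Stc1, Fam107a, Errfi1, Nr4a3, Jdp2, Maff, Irs2, Dusp1, Zfp36, Klf15, Klf6, Kcna5, S1pr1, Fkbp5 and Hif3a. Among the falls were Ccr2, Cx3cr1, Gpr34, Ccl7, Aplnr and Evi2a. Fam107a, which encodes a stress-responsive actin-binding protein, ran from 2.42 to 4.10 CPM (median 3.26) in ZT0-SED and from 10.9 to 35.1 CPM (median 16.7) in ZT0-EX, a rise of 2.61 ± 0.26 (adjusted p = 0.000159). Evi2a ran from 4.02 to 8.62 CPM (median 5.99) in ZT0-SED and from 1.52 to 3.47 CPM (median 2.61) in ZT0-EX, a change of -1.27 ± 0.17 (adjusted p = 0.00112). With the muscle marker level as a term 161 genes passed, 153 of them among the 413. Of the 413, 192 passed in every one of the 12 fits that left out 1 library. A test of whether the exercise effect differed between flow cells called 0 genes (edgeR, smallest adjusted p 0.833), with 733 genes at an unadjusted p below 0.05.

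Other large falls concerned genes of varied function at low levels. Rassf10, a RAS-association family gene, ran from 1.95 to 5.32 CPM (median 3.89) in ZT0-SED and from 0.997 to 1.58 CPM (median 1.20) in ZT0-EX, a change of -1.54 ± 0.19 (adjusted p = 0.000673) without overlap. Mycn, a growth-promoting transcription factor of the MYC family, changed by -1.40 ± 0.27, and Grhl2, a transcription factor of epithelia, by -1.18 ± 0.23. The membrane-proximal adaptor gene Akap5, which anchors protein kinase A, changed by -1.16 ± 0.28 and passed in 3 of 12 leave-one-out fits (adjusted p 0.121 without ZT0-EX 3). Smim5 (-1.14 ± 0.21), Fam84a (-1.36 ± 0.24), Lst1, a gene of immune cells (-1.31 ± 0.29), and Eprn (-1.17 ± 0.26) fell as well. Lst1 passed in 5 of 12 leave-one-out fits (adjusted p 0.0790 without ZT0-EX 3), and Eprn passed in 5 of 12 leave-one-out fits (adjusted p 0.0784 without ZT0-EX 3). Among the 5 most abundant rises were Eef2, an elongation factor of translation (0.55 ± 0.13), and Pygm, the muscle glycogen phosphorylase (0.50 ± 0.12). Pygm is abundant in skeletal muscle too. Eef2 passed in 4 of 12 leave-one-out fits (adjusted p 0.102 without ZT0-EX 5), and Pygm passed in 4 of 12 leave-one-out fits (adjusted p 0.133 without ZT0-EX 3). In the 8-library fit they stood at 0.63 and 0.41, and neither passed. Marcks, which binds actin and calmodulin at the membrane, was among the most abundant falls (-0.82 ± 0.14, adjusted p = 0.00492), with the lysosomal protease gene Ctsc (-0.47 ± 0.12), the surface protein gene Cd200 (-0.50 ± 0.10) and the histone gene H3f3b (-0.51 ± 0.13). Ctsc passed in 2 of 12 leave-one-out fits (adjusted p 0.123 without ZT0-EX 5), Cd200 passed in 8 of 12 leave-one-out fits (adjusted p 0.0580 without ZT0-EX 5), and H3f3b passed in 3 of 12 leave-one-out fits (adjusted p 0.121 without ZT0-EX 3).

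At ZT12 the effect of the bout had the same sign in most of these genes, and no single gene was shown to differ between the times by edgeR. Exercised and sedentary mice at ZT12 differed in 14 of 14200 genes tested on those 12 libraries alone (0.0986%), 10 higher (0.0704%) and 4 lower (0.0282%). Both comparisons use their own controls. Of the 413 genes 402 were measured at ZT12, and 362 of them had the same sign there, 251 of the rises and 111 of the falls. The median ZT12 effect was 0.51 for the ZT0 rises and -0.40 for the falls, and 12 genes passed at both times. The genes were chosen by their ZT0 effects, which selects large values at that time. At ZT12 fast skeletal muscle transcripts were abundant in 1 library of each group, replicate 6. Hspa1a stood at 4.57 at ZT0 and 3.71 at ZT12, Nr4a1 at 2.79 and 2.55, and Ccr2 at -1.76 and -1.45, each past the threshold at both times. Per1 stood at 3.00 at ZT0 and 1.00 at ZT12 (adjusted p of the ZT12 effect 0.362, of the difference 0.506). Fam107a stood at 2.61 and 0.60 (adjusted p of the difference 0.125), Tob2 at 1.62 and 0.23 (0.167), Kcna5 at 1.54 and 0.02 (0.542), and S1pr1 at 1.07 and -0.08 (0.571). The medians of the glucocorticoid-responsive list were 1.21 at ZT0 and 0.55 at ZT12, of the Krueppel-like factors 0.61 and 0.30, and of the HSP90 list 0.27 and 0.37. The difference between both exercise effects was past the threshold for 0 of 15294 genes with edgeR (smallest adjusted p 0.125), while 1226 had an unadjusted p below 0.05. DESeq2 called 5 and limma-voom 0.

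**Figure D5:**
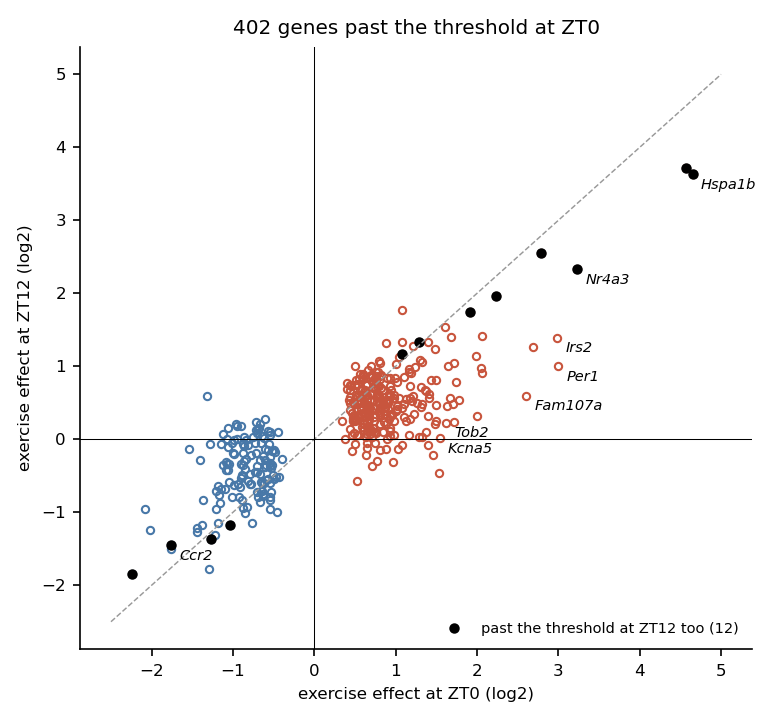
Each circle is 1 of the 402 genes past the threshold at ZT0 that were also measured at ZT12, with the log2 exercise effect at ZT0 on the horizontal and at ZT12 on the vertical axis, red for rises and blue for falls at ZT0. Black points mark the 12 genes past the threshold at both times, the dashed line equal effects, and Per1, Irs2, Fam107a, Tob2 and Kcna5 lie below it.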

How the data were processed

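Mouse heart RNA was extracted with Trizol, selected for poly-A tails and sequenced as Illumina TruSeq libraries, per the labels' protocols. The authors deposited raw counts of reads per gene, 52350 Ensembl identifiers in each library's file. The submitters' processing notes name Trimmomatic 0.39, HISAT2 2.2.1, the build GRCm39 and featureCounts 2.0.1. No source used here gives their settings, the annotation or whether strand was used, so overlapping and antisense genes cannot be told apart. Symbols were matched for 52093 identifiers, and those without one held 0.00128% of the counts.

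The 12 ZT0 libraries were fitted alone with edgeR 4.0.16 in R 4.3.3, after its default filter on low counts and TMM normalisation, with a robust quasi-likelihood fit, terms for flow cell and exercise and 9 residual degrees of freedom. P-values were adjusted over all genes tested by the Benjamini-Hochberg method, with a threshold of 0.05. Errors after ± are standard errors derived from the F statistic, unless marked SD. CPM values are counts scaled to a common library total after TMM normalisation. Marker sums use the raw totals, and an effect within 1 flow cell is the difference of its groups' mean log2 CPM. The fit was tested on simulated data. DESeq2 1.42.0, limma-voom (limma 3.58.1), other scalings and filters, single flow cells and sets with libraries left out were run as alternatives. Leave-one-out fits omit 1 of the 12 libraries at a time. Transcript lengths and GC content are those of the longest annotated transcript. The comparison with ZT12 fits the 12 libraries of that time alone, and the difference between times is an interaction term over all 24.

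The genes named are the 15 largest rises and falls past the threshold whose average log2 CPM reached 1, up to 6 genes with the smallest p in each list, the 5 most abundant rises and falls, a fixed set of well-known genes, and genes named after their values were seen. Of the last kind, 15 entered the counts of named genes under the alternatives. The lists and members were chosen with earlier results of these data known. Coordinates are RefSeq's on GRCm38.p6, not the build of the counts. A few genes are left out of the text.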

Additional observations from a re-analysis of the deposited data

Results flagged for a closer look

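Within groups of 6 libraries, 3 of 88 groups of values held a library far from the others by Dixon's criterion, which chance meets in about 1 of 20 groups. For Atf3, ZT0-SED 4 stood at 7.47 CPM against 4.49 to 5.08 CPM in the other sedentary libraries. For Pdk4, ZT0-EX 3 stood at 666 CPM against 338 to 392 CPM in the other exercised libraries. For the fast skeletal muscle marker level, ZT0-SED 6 stood at a mean log2 CPM of 5.95 against -0.06 to 1.11 in the other sedentary libraries.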

How the results depend on the processing

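Against 413 genes past the threshold (271 higher, 142 lower), of which those measured kept their sign in each setting listed here, other settings gave other counts. The counts were 1186 with DESeq2 (765 higher, 421 lower), 141 without a flow cell term (102 and 39), 161 with the muscle marker level as a term (113 and 48), 18 on flow cell 1 alone (15 and 3), 26 on flow cell 2 alone (24 and 2), 165 with all 24 libraries in 1 fit (121 and 44), 53 without the 4 libraries with skeletal muscle transcripts (41 and 12) and 684 with offsets for transcript length (420 and 264). The other 7 settings gave 364 to 507. Leaving out 1 library gave 206 (without ZT0-EX 5) to 2596 (without ZT0-SED 6) genes, 147 to 1480 higher and 59 to 1116 lower. It moved the count of rises to 174 without ZT0-SED 2. Fits with libraries left out hold fewer samples by construction; for the others the cause was not tested.

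With the replicate number as a block in place of flow cell, 146 genes passed (113 higher, 33 lower), 142 of them among the 413. Same-numbered libraries of both groups deviated together at correlations of -0.42, 0.15, -0.16, -0.36, -0.16 and -0.32 for numbers 1 to 6, and 1 of 6 correlated best with its own number, so the libraries share only a number.

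The difference between times was past the threshold for 0 genes with edgeR, 1 without a filter on low counts and 5 with DESeq2. The difference in library totals was -55762 on flow cell 1. Of 5946 values of named genes under the alternatives, 4898 kept their side of the threshold and their direction, 891 lost and 143 gained the threshold, and 14 changed sign, none of them among the 126 named genes past the threshold. Sign changes included Pfkp (-0.11), Ttn (-0.15) and Nppb (0.14) with length offsets, Bmal1 (-0.00410), Egr1 (-0.10) and Nppb (0.0590) on flow cell 1, Nr1d1 (-0.0219) and Nppb (0.12) with the marker term, Egr1 (-0.10) and Nppb (0.0665) without the 4 libraries, and Nppa with the replicate block (-0.0252), on flow cell 2 (-0.44) and without ZT0-EX 1 (-0.00258), in a leave-one-out range that reached 0.669 without ZT0-SED 5.

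Depth limits the low genes: 3 counts are 0.217 CPM in the shallowest library, and genes such as Chac1 and Hif3a lie near that level in sedentary mice.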
